A study of Mus musculus with 12 samples.

Results

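Genes of cholesterol synthesis, uptake and efflux were followed in mouse liver after exposure to secondhand smoke (SHS). They are 31 genes taken from a fixed list of names, which was chosen with earlier results of these data known. The list holds 8 of the mevalonate steps, 11 of the squalene and sterol steps, 7 of uptake and intracellular transport, 2 of esterification and 3 of efflux. A gene was found through the array's probe table, and 28 of the 31 had at least 1 probe set, a group of short probes that measures a transcript, naming that gene alone. Acat2, whose enzyme joins acetyl-CoA units at the head of the pathway, and Soat1 and Soat2, which esterify cholesterol, had no probe set in the table, so esterification was not measured here. The 28 genes had 63 probe sets, of 45037 tested on the array, and are set against 18193 genes in all. Affymetrix GeneChip Mouse Genome arrays were run on liver RNA of adult male C57BL/6 mice in 3 groups of 4 arrays. The SHS4m+1m recovery group (replicates 70 to 73, called recovery) had 4 months of SHS followed by 1 month in clean air. The SHS4m group (replicates 66 to 69) was taken at the end of 4 months of SHS. The control group (replicates 1 to 4) was sham-exposed to filtered clean air. The methods describe age-matched sham subgroups with and without the recovery month, and which of these the control arrays came from is not in the labels, so age and treatment cannot be told apart over that month. Nothing in the labels says how many mice went into an array, and p-values measure the spread between these arrays. All comparisons with controls used the same 4 control arrays.

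Cholesterol is built in the endoplasmic reticulum from acetyl-CoA through mevalonate, isoprenoids, squalene and a series of sterols. In liver the enzymes are under common control of SREBP-2, a transcription factor that is held in the membrane when sterol is plentiful. Hepatocytes also take up sterol from lipoproteins, move it between membranes and secrete it into bile, and the exporter genes are known targets of the liver X receptors, which sense oxidised sterols.

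Promoters are shown of 4 synthesis genes, each with a lower mean at the end of exposure than in controls, and of the exporter pair, which was higher. The sequences are from RefSeq on GRCm38.p6, whose table held a window of 250 bases before to 50 bases after the start for 22 of the 28 measured genes (not for Fdps, Fdft1, Sqle, Stard4, Npc1 and Scarb1). Each line gives the 250 bases before the start, 5′ to 3′ on the gene's strand, of Hmgcs1 (chr13:119690101-119690350, plus strand), Idi1 (chr13:8885356-8885605, plus), Nsdhl (chrX:72918271-72918520, plus) and Sc5d (chr9:42264301-42264550, minus). The last line gives the 109 bases between the starts of Abcg5 and Abcg8, which are transcribed away from each other (chr17:84683012-84683120, plus strand). Capitals mark matches to TCACNCCAC, a form of the sterol regulatory element that SREBP binds, and to CCAAT, the NF-Y box, each searched on both strands (GTGGNGTGA and ATTGG on the other strand).
Hmgcs1: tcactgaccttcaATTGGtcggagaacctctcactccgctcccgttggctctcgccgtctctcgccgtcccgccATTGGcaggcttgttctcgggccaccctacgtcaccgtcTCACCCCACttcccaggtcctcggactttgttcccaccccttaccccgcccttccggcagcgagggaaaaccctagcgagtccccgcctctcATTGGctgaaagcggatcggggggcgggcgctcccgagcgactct
Idi1: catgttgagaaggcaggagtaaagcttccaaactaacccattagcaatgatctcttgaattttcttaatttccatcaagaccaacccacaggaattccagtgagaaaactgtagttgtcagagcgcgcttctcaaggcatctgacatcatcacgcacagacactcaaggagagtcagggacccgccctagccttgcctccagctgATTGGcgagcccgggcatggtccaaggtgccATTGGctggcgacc
Nsdhl: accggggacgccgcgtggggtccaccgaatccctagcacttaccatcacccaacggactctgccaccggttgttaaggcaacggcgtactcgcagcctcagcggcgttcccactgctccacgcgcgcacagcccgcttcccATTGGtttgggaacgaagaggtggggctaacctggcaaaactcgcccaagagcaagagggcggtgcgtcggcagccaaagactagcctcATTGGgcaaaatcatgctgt
Sc5d: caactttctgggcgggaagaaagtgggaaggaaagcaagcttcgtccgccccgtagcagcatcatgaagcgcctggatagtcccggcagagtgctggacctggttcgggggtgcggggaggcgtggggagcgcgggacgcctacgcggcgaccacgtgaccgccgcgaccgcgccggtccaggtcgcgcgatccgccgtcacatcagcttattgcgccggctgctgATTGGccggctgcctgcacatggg
Abcg5-Abcg8: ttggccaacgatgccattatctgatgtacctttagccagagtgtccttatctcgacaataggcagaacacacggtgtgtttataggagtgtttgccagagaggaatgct
A gene was counted as holding a motif if any of its windows did. TCACNCCAC was found in 1 of the 22 genes, Hmgcs1, at 137 to 129 bases before the start. It was present in 1.24% of 32851 promoter windows of the same length and in 1.46% of the 14453 array genes with a window. CCAAT was found in 21 of the 22 genes (all but Abca1) and in 15 of the 15 synthesis genes with a window. It was present in 37.4% of all windows and in 42.0% of the 14453 array genes. In Hmgcs1 the box stands at 237 to 233, 176 to 172 and 45 to 41 bases before the start, in Idi1 at 45 to 41 and 14 to 10, in Nsdhl at 109 to 105 and 20 to 16, and in Sc5d at 24 to 20. The stretch between Abcg5 and Abcg8 holds neither motif. These are matches of letters only, and any link between them and the differences in signal was not tested.

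The synthesis genes are those of the mevalonate, squalene and sterol steps, with Ggps1, which leads away from sterols, among them. At the end of exposure 17 of the 18 measured, all but Ggps1, had a lower mean in SHS4m than in control livers. Idi1, Nsdhl and Sc5d passed the adjusted threshold. Both subunits of the biliary sterol exporter, Abcg5 and Abcg8, and the HDL receptor Scarb1 rose, and the sterol carrier Stard4 fell. Signals are linear intensities as deposited, and differences are on the log2 scale after values below 32 were raised to 32. Each gene was read by its brightest probe set, and called at a Benjamini-Hochberg adjusted p under 0.05 from limma over all probe sets. Of the 28 genes, 7 were called in SHS4m against control (3 higher and 4 lower), beside 7.47% of all genes (3.73% higher and 3.74% lower). The study's threshold, an unadjusted p under 0.05 with a 2-fold change, was passed by 7 genes (1 higher and 6 lower), beside 2.81% of all genes (1.18% higher and 1.63% lower). The 18 synthesis genes measured had a median difference of -0.77 against -0.0086 over all genes, where 10307 of 18193 lay at or below 0. By the adjusted p 3 of the 18 fell and 0 rose, and 15 were lower at an unadjusted p under 0.05 and 0 higher, beside 12.4% and 10.1% of all genes. In 11 of the 18 every SHS4m array lay below every control array, and in 0 above, beside 8.31% and 7.24% of all genes. The 10 measured genes of uptake, transport and efflux had a median of 0.03, with 3 that rose and 1 that fell. In bulk liver RNA, fewer cells of a type and less RNA per cell cannot be told apart.

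**Figure D1:**
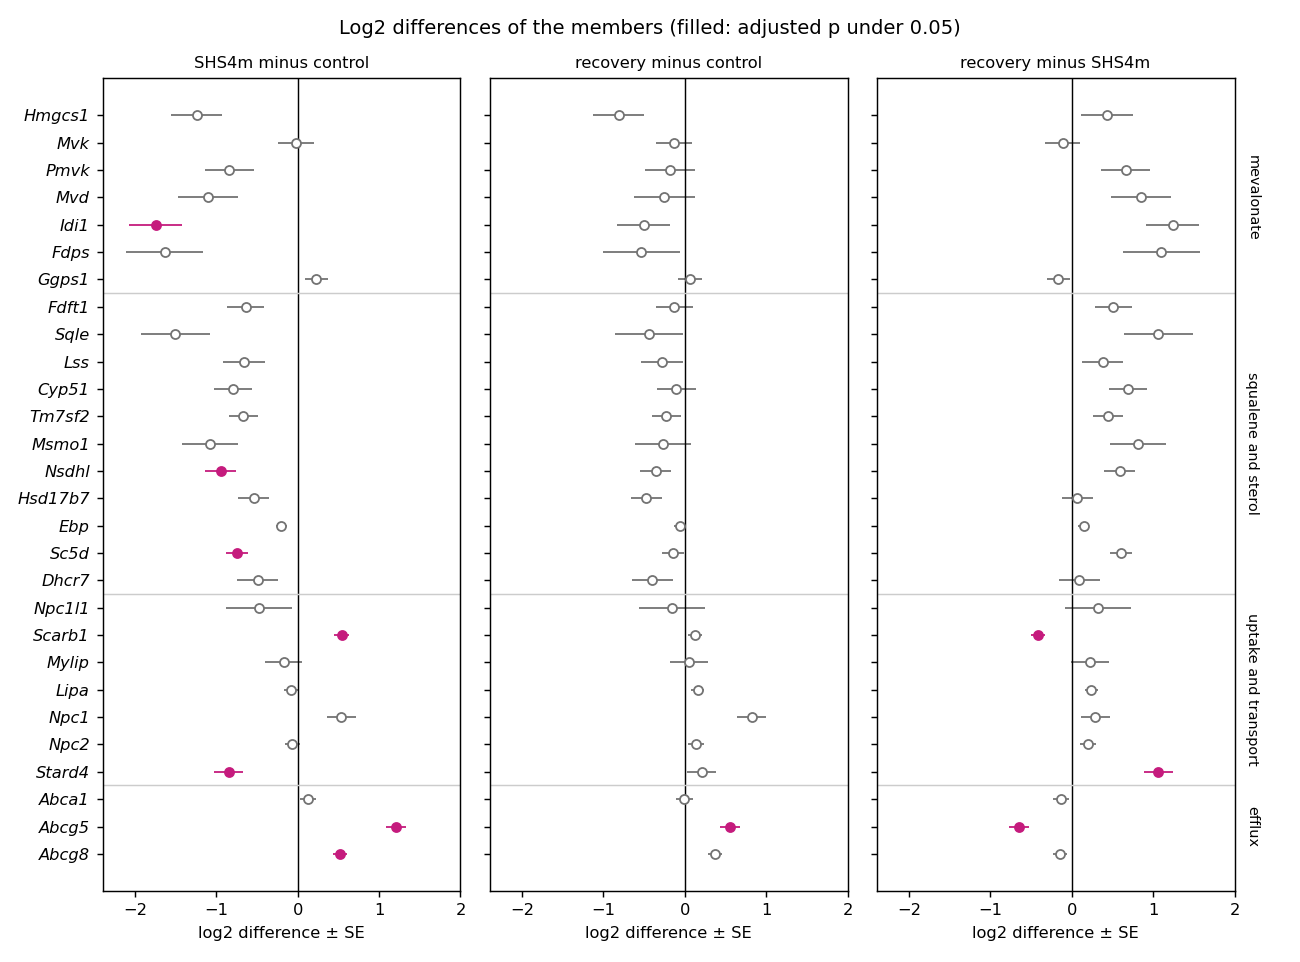
Log2 difference of each of the 28 measured genes (rows, ordered by role) in SHS4m minus control, recovery minus control and recovery minus SHS4m; bars are the standard error from limma and filled points have an adjusted p under 0.05. In SHS4m minus control 17 of 18 synthesis genes lie left of 0, and Abcg5 lies at 1.21.

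Among the mevalonate steps, Idi1, the isomerase that makes the active isoprenoid unit, fell. Its signal on probe set 1451122_at was 2048, 2298, 3608 and 4517 on the SHS4m arrays, against 9866, 9907, 15691 and 6352 on the control arrays. Every SHS4m array was below every control array. The log2 signal averaged 11.53 ± 0.54 in SHS4m and 13.28 ± 0.53 in controls (SD, n = 4 each), so that SHS4m minus control was -1.75 (SE 0.32; limma, adjusted p = 0.0144), or 29.8% of the control level. The second Idi1 probe set also passed (1423804_a_at, -1.58, adjusted p = 0.0478).

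Hmgcs1, the synthase that makes HMG-CoA, had signals of 6646, 8762, 12995 and 14588 in SHS4m, against 22277, 23864, 35607 and 18298 in controls. The groups did not overlap, and the difference of -1.24 (standard error 0.32) missed the adjusted threshold (adjusted p = 0.0539 from limma) while passing the study's threshold. Its probe sets disagreed in call: 1433446_at was lower by -1.56 and passed (adjusted p = 0.0209), 1433445_x_at and 1433444_at differed by -1.24 and -1.30 and did not (adjusted p = 0.0534 and 0.0674), and 1441536_at lay near the floor. Fdps, which makes farnesyl diphosphate, differed by -1.63 (adjusted p = 0.0872) and passed the study's threshold, as did Mvd, the decarboxylase that ends the mevalonate steps proper, at -1.10 (adjusted p = 0.138). The dimmer Mvd probe set 1448663_s_at fell by 1.94 on the log2 scale (adjusted p = 0.0234). Pmvk, the second kinase of mevalonate, differed by -0.84 (adjusted p = 0.168). Mvk, the first kinase, differed by -0.02 (standard error 0.22). Ggps1, which takes farnesyl diphosphate on to geranylgeranyl diphosphate and away from sterols, was the 1 synthesis gene with a positive difference, 0.23 (standard error 0.15, adjusted p = 0.501), and its 4 probe sets ranged in sign.

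Of the squalene and sterol steps, Nsdhl and Sc5d fell. Nsdhl, a dehydrogenase that helps remove the methyl groups at carbon C-4 of the sterol ring (1416222_at), had signals of 2310, 1750, 2376 and 3440 in SHS4m, against 4604, 4348, 5735 and 3987 in controls. No SHS4m array reached the lowest control array. The log2 signal averaged 11.23 ± 0.40 in SHS4m and 12.18 ± 0.22 in controls (SD, n = 4 each), so that SHS4m minus control was -0.95 (SE 0.19; limma, adjusted p = 0.0211). This call was lost in 5 of 16 alternatives, with an adjusted p of at most 0.0665.

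Sc5d, the desaturase that places a ring double bond shortly before the last step (1451457_at), had signals of 6814, 6654, 7358 and 8290 in SHS4m, against 11097, 11296, 15919 and 10961 in controls. The SHS4m arrays lay together below all control arrays. The log2 difference was -0.75 (standard error 0.14, adjusted p = 0.0132 from limma). The other Sc5d probe sets gave larger differences, -2.56 for 1434520_at (adjusted p = 0.00106) and -1.97 for 1424709_at (adjusted p = 0.00239). On 1434520_at the signals were 367, 297, 302 and 487 in SHS4m, against 1474, 1782, 3669 and 2034 in controls. Direction was shared by the 3 probe sets and size was not.

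**Figure D2:**
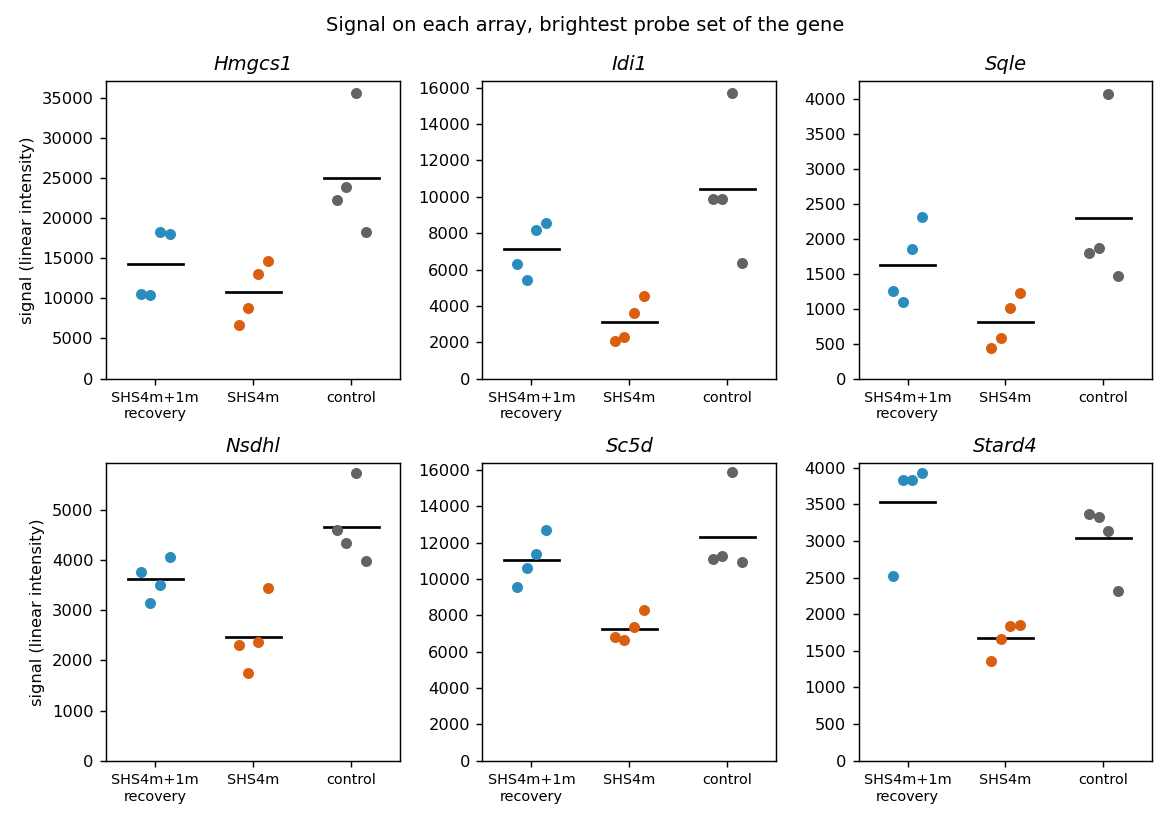
Linear signal on each array (points) with the group mean (line) for 5 synthesis genes and Stard4, with recovery, SHS4m and control from left to right. All 4 SHS4m points of Idi1 (2048 to 4517) lie below the control points (6352 to 15691), and in each synthesis gene shown control replicate 3 is the top point.

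The other sterol steps were lower without passing the adjusted p. Sqle, which adds oxygen to squalene and controls flux at that step, had signals of 437, 576, 1008 and 1224 in SHS4m, against 1788, 1873, 4073 and 1473 in controls. Its groups did not overlap either, and the difference was -1.50 (standard error 0.42, adjusted p = 0.0756 from limma), past the study's threshold. Msmo1, the C-4 methyl oxidase that acts before Nsdhl, differed by -1.08 (adjusted p = 0.117) and also passed the study's threshold. Cyp51, which removes the methyl group at carbon C-14, differed by -0.79 (adjusted p = 0.0949), and Tm7sf2, the reductase after it, by -0.67 (adjusted p = 0.0689). Fdft1, which makes squalene, Lss, which closes its rings, and Hsd17b7, the ketoreductase after Nsdhl, differed by -0.64, -0.66 and -0.54. Other probe sets of Lss differed by -0.09 (1426913_at) and -0.74 (1420014_at). Those of Fdft1 differed by -0.60 (1448130_at) and, near the floor, by 0.04 (1438918_at) and 0.35 (1438919_x_at). Dhcr7, the reductase that yields cholesterol, differed by -0.49 (adjusted p = 0.356). Ebp, the sterol isomerase, had a difference of -0.20 with a standard error of 0.0677 (adjusted p = 0.133). By the brightest probe set all 11 genes of these steps had a negative difference. In 7 of the 11 every SHS4m array lay below every control array, beside 8.31% of all genes.

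The synthesis genes also moved together from array to array inside each group. Control replicate 3 was the highest control array in 16 of the 18 genes, SHS4m replicate 69 the highest SHS4m array in 15, and recovery replicate 73 the highest recovery array in 14. SHS4m replicates 66 and 67 were among the 2 lowest of their group in 17 genes each. The median deviation of the 18 genes from their 12-array mean was -0.10, -0.12, 0.17 and 0.40 on recovery replicates 70 to 73, -0.66, -0.74, -0.25 and 0.02 on SHS4m replicates 66 to 69, and 0.19, 0.24, 0.87 and 0.12 on control replicates 1 to 4 (log2). Recovery replicates 70 and 71 lay below all control arrays, and replicate 73 above all of them but replicate 3. The within-group SD of log2 signal had a median of 0.36 over the 18 synthesis genes, 0.16 over the 10 genes of uptake, transport and efflux, and 0.20 over 9611 genes of similar or higher signal. With control replicate 3 left out, the median difference of the synthesis genes in SHS4m against control was -0.63 and 5 genes of the 28 were called. With SHS4m replicate 69 left out it was -0.89 and 11 genes were called, Fdps, Cyp51, Tm7sf2 and Ebp being added. Leaving out SHS4m replicate 66 or control replicate 1 also gave 5 calls.

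**Figure D3:**
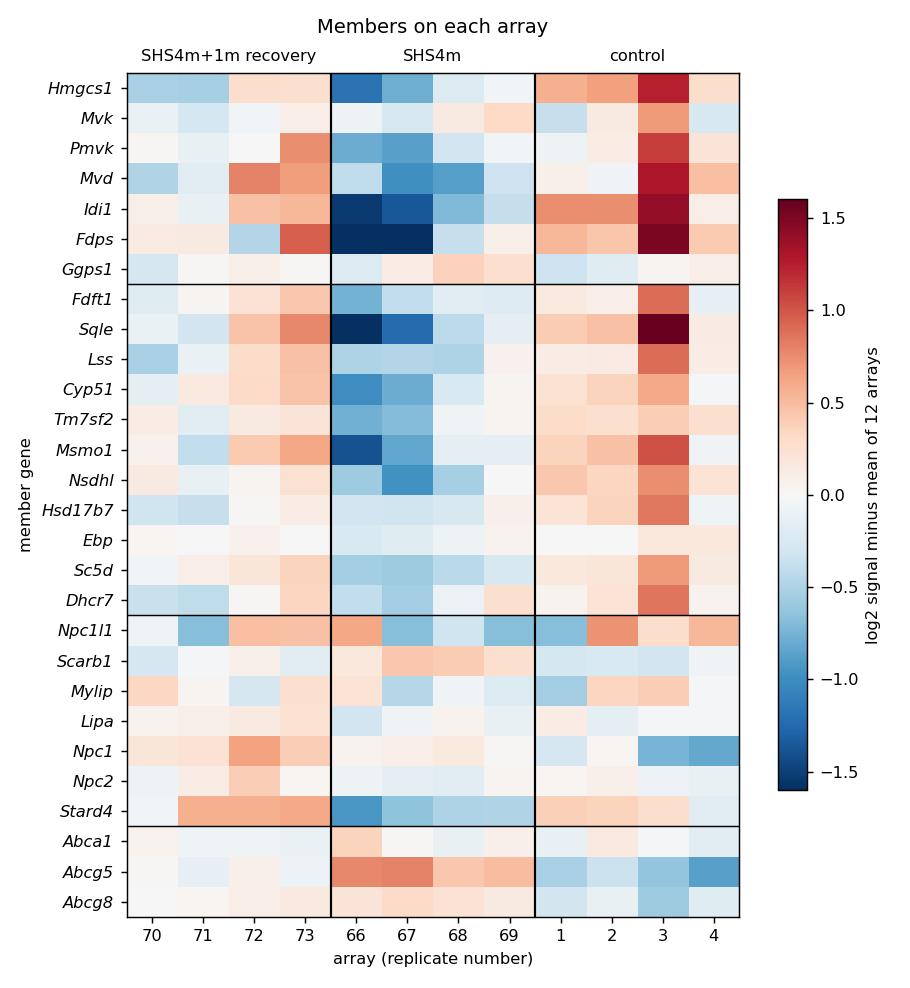
Log2 signal of each measured gene (rows, in the order of roles) minus its mean over the 12 arrays (columns: recovery, SHS4m and control), with red above and blue below that mean and colours full at the ends of the scale. Synthesis genes form a blue block on SHS4m replicates 66 and 67 and a red one on control replicate 3, and Abcg5 runs the other way.

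Among uptake and transport genes, Stard4 fell and Scarb1 rose. Stard4, a soluble carrier that moves sterol between membranes and is itself a sterol-regulated gene (1455011_at), had signals of 1359, 1663, 1837 and 1851 in SHS4m, against 3369, 3321, 3140 and 2310 in controls. No SHS4m array reached the lowest control array. The log2 signal averaged 10.70 ± 0.21 in SHS4m and 11.55 ± 0.26 in controls (SD, n = 4 each), so that SHS4m minus control was -0.85 (SE 0.18; limma, adjusted p = 0.0243). The other 2 Stard4 probe sets fell by 1.04 and 0.96 on the log2 scale (adjusted p = 0.00214 and 0.0248). The call on the brightest probe set was lost in 5 of 16 alternatives, each with 1 array left out, with an adjusted p of at most 0.0663.

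Scarb1, the SR-BI receptor that draws cholesterol from HDL into hepatocytes (1416050_a_at), had signals of 3967, 4752, 4655 and 4208 in SHS4m, against 2902, 2969, 2849 and 3386 in controls. All SHS4m arrays were above all control arrays. The difference was 0.54 (standard error 0.089, adjusted p = 0.00893 from limma), 1.45-fold, and the other 2 probe sets gave 0.52 each (adjusted p = 0.0193 and 0.00613).

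Npc1, which exports cholesterol from lysosomes, had signals of 2428, 2510, 2602 and 2372 in SHS4m, against 1947, 2380, 1393 and 1326 in controls. Control replicate 2 lay just above the lowest SHS4m array, and the difference of 0.53 did not pass (adjusted p = 0.139). Npc2, its soluble partner, differed by -0.07, Lipa, the lysosomal acid lipase, by -0.08, and Mylip, a ubiquitin ligase that marks lipoprotein receptors for breakdown, by -0.17, none of them past the adjusted threshold. The Lipa probe sets disagreed: 1423141_at fell by 0.42 on the log2 scale (adjusted p = 0.0224), while 1450872_s_at differed by 0.00. Npc1l1, a sterol importer best known from the intestine, had signals of 12 to 84 over the 12 arrays, near the floor of 32.

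Of the efflux genes, Abcg5 and Abcg8 rose. Their proteins pair to form the transporter that secretes sterols into bile. Abcg5 (1419393_at) had signals of 6220, 6315, 4922 and 5144 in SHS4m, against 2546, 2883, 2366 and 1996 in controls. The lowest SHS4m array was well above the highest control array. Its log2 signal averaged 12.46 ± 0.18 in SHS4m and 11.24 ± 0.22 in controls (SD, n = 4 each), so that SHS4m minus control was 1.21 (SE 0.12; limma, adjusted p = 0.00088), 2.31-fold. Abcg8 (1420656_at) had signals of 2159, 2317, 2194 and 2076 in SHS4m, against 1525, 1727, 1267 and 1636 in controls. These groups did not overlap, and the difference was 0.52 (standard error 0.087, adjusted p = 0.00973), 1.43-fold. Abca1, which loads cholesterol onto apolipoprotein A-I, differed by 0.13 (standard error 0.10, adjusted p = 0.612).

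**Figure D4:**
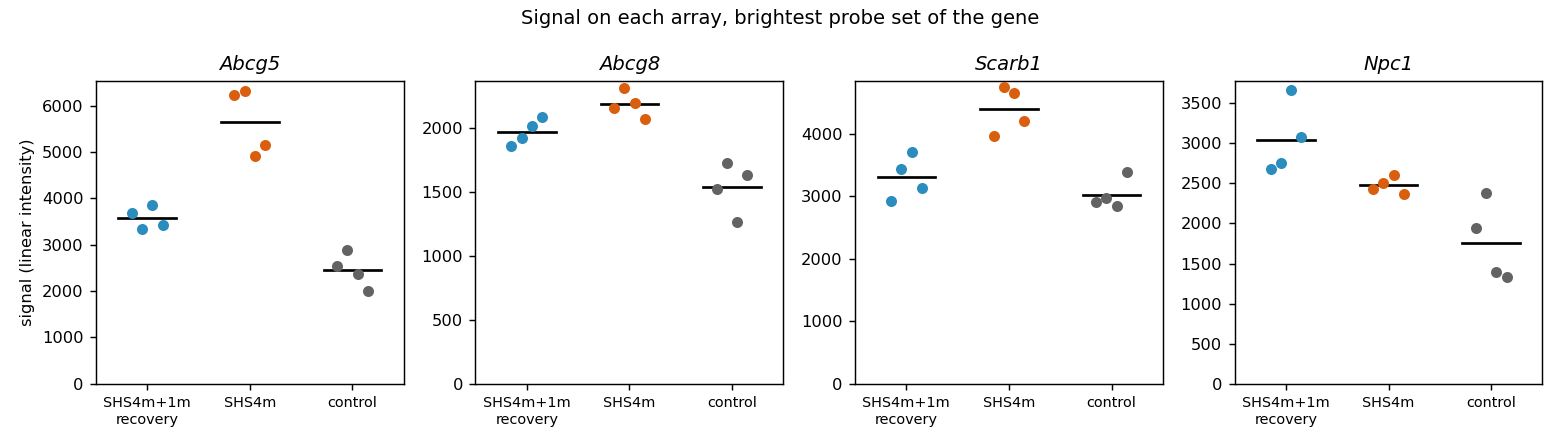
Linear signal on each array (points) with the group mean (line) for the 2 biliary exporter genes, the HDL receptor Scarb1 and Npc1, with recovery, SHS4m and control from left to right. Abcg5 lies between 4922 and 6315 in SHS4m, between 3338 and 3865 in recovery and between 1996 and 2883 in controls.

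Over every probe set that names a gene of the group, 17 of 63 were called in SHS4m against control (5 higher and 12 lower), beside 5.4% of all probe sets (2.52% higher and 2.87% lower), and they belonged to 10 genes. Of the 42 synthesis probe sets 8 fell and 0 rose. Of the 63 probe sets, 55 were above the floor on every array, and 3 were at it on 7 or more arrays. Probe sets whose names end in _a_at, _s_at or _x_at may share sequence with other transcripts.

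**Figure D5:**
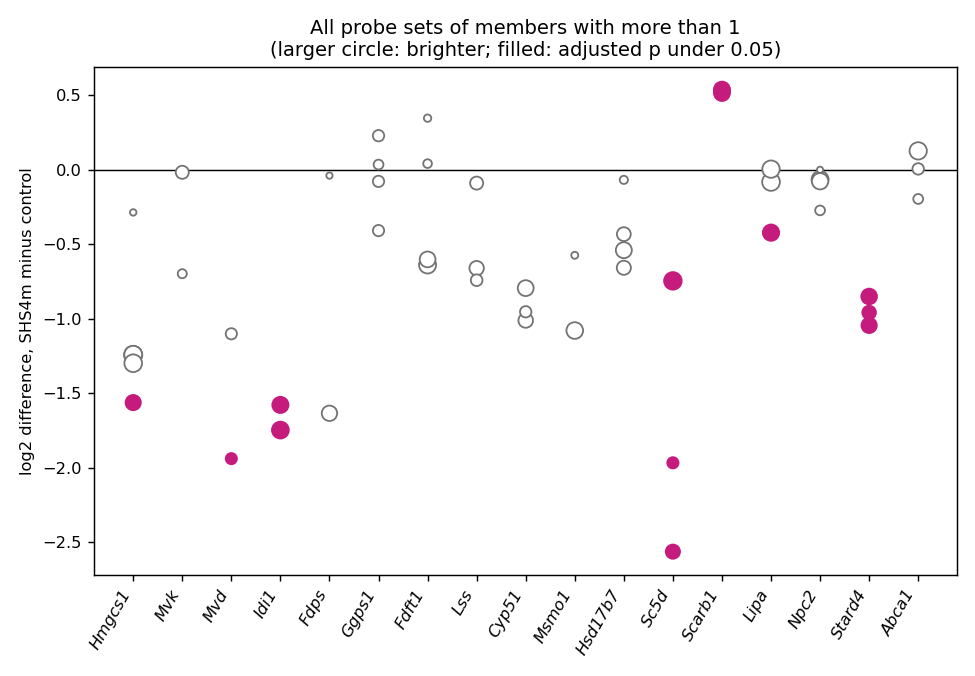
Log2 difference in SHS4m minus control (vertical axis) of every probe set of the 17 genes with more than 1, with larger circles for brighter probe sets and filled circles for an adjusted p under 0.05. All 3 probe sets of Sc5d, Stard4 and Scarb1 are filled, while those of Hmgcs1, Mvd and Lipa disagree in call.

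After the month of recovery, no synthesis gene passed the adjusted threshold against controls by its brightest probe set. Abcg5 was higher by a call at the edge of the threshold (adjusted p = 0.0497 from limma) that was lost in 14 of 16 alternatives. In recovery against control 1 of the 28 genes was called, beside 2.52% of all genes (1.37% higher and 1.14% lower). The study's threshold was passed by 0 of the 28, beside 1.21% of all genes (0.495% higher and 0.72% lower), and 5 had an unadjusted p under 0.05 (3 higher and 2 lower), beside 8.12% higher and 7.96% lower of all genes. By limma 0 of the 18 synthesis genes were called and 2, Hmgcs1 and Hsd17b7, had an unadjusted p under 0.05. The median difference of the 18 was -0.26, against 0.00 over all genes. Of the 18, 17 were negative, beside 9964 of 18193 genes at or below 0. With 1 array left out, the median of the 18 ran from -0.41 (without recovery replicate 73) to -0.08 (without control replicate 3). Non-overlapping groups were seen in 5 of the 28 (3 higher and 2 lower), beside 4.8% higher and 4.76% lower of all genes.

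Abcg5 had signals of 3687, 3338, 3865 and 3430 in recovery, against the control values of 2546, 2883, 2366 and 1996. The groups did not overlap, and recovery minus control was 0.56 (SE 0.12; limma, adjusted p = 0.0497), 1.47-fold. The call lay at the threshold and was lost in 14 of 16 alternatives, with an adjusted p of at most 0.124. Abcg8 had signals of 1864, 1920, 2020 and 2089 in recovery, all above the control arrays, and differed by 0.37 (adjusted p = 0.0692). Npc1 had signals of 2685, 2756, 3661 and 3079 in recovery, also above all control arrays, and differed by 0.82 (standard error 0.18, adjusted p = 0.0522). With control replicate 2 left out, Npc1, Abcg5 and Abcg8 were all called.

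Hmgcs1 had signals of 10524, 10451, 18280 and 18053 in recovery, and its difference from controls was -0.81 (adjusted p = 0.282). Recovery replicate 72 lay just below the lowest control array, so the groups met without overlapping. The dimmer Hmgcs1 probe set 1433446_at had signals of 1387, 1192, 1593 and 2339 in recovery, against 3575, 3389, 6008 and 2775 in controls. It did not overlap either, and differed by -1.26 (standard error 0.32, adjusted p = 0.0837), past the study's threshold. Idi1 differed by -0.51 (adjusted p = 0.594) and Sc5d by -0.14 (adjusted p = 0.724) from controls. On the dim Sc5d probe set 1424709_at the recovery signals were 166, 161, 203 and 141, against 433, 310, 764 and 403 in controls. This probe set was lower by -1.44 (adjusted p = 0.0205), so that the Sc5d probe sets gave different calls after recovery. These 2 probe sets of Hmgcs1 and Sc5d were the ones of 63 past the study's threshold in recovery against control, both lower, beside 0.979% of all probe sets. Over all 63 probe sets 4 were called (2 higher and 2 lower), beside 2.07% of all probe sets (0.877% higher and 1.19% lower), the others being Abcg5, Npc2 1416901_at (0.32, adjusted p = 0.0432) and Lipa 1423141_at (-0.54, adjusted p = 0.0167).

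Set directly against the end of exposure, recovery livers had higher Stard4 and lower Abcg5 and Scarb1. These 3 of 28 genes were called in recovery against SHS4m, beside 3.68% of all genes (2.01% higher and 1.68% lower). Idi1, Fdps, Sqle and Stard4 passed the study's threshold, all higher, beside 1.93% of all genes (0.984% higher and 0.951% lower). All recovery arrays were above all SHS4m arrays in 4 genes and below them in 2, beside 6.21% and 5.1% of all genes. Of the 18 synthesis genes 16 had a positive difference, beside 9027 of 18193 genes, with a median of 0.55 against 0.00 over all genes. By limma 0 of these were called, and 9 were higher at an unadjusted p under 0.05 and 0 lower, beside 10.2% and 8.01% of all genes.

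Stard4 had signals of 2520, 3826, 3832 and 3932 in recovery, against 1359, 1663, 1837 and 1851 in SHS4m. All recovery arrays were above all SHS4m arrays, with replicate 70 the lowest of its group. The difference was 1.06 (standard error 0.18, adjusted p = 0.0172 from limma), 2.08-fold, and the other 2 probe sets rose by 0.93 and 1.40 (adjusted p = 0.00686 and 0.00869). The call on the brightest probe set was lost in 1 of 16 alternatives, without recovery replicate 71 (adjusted p = 0.0533).

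Abcg5 fell by 0.65 on the log2 scale (standard error 0.12, adjusted p = 0.0255 from limma) in recovery against SHS4m, and its highest recovery array, 3865, was below its lowest SHS4m array, 4922. The call was lost in 5 of 16 alternatives, without SHS4m replicate 66 or 67 or recovery replicate 70, 71 or 73, with an adjusted p of at most 0.0696. Its recovery level lay between the SHS4m and control levels with no overlap on either side. Abcg8 differed by -0.15 (standard error 0.087, adjusted p = 0.535). Scarb1 had signals of 2930, 3433, 3712 and 3142 in recovery, below all SHS4m arrays, and fell by 0.41 on the log2 scale (standard error 0.089, adjusted p = 0.044), a call lost in 12 of 16 alternatives. Scarb1 differed by 0.12 between recovery and control (adjusted p = 0.662).

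Idi1 had signals of 6297, 5422, 8184 and 8549 in recovery, above the 2048 to 4517 of SHS4m on every array. The difference was 1.24 (standard error 0.32, adjusted p = 0.0879). Sc5d had signals of 9580, 10640, 11365 and 12701 in recovery, again with no overlap with SHS4m, and differed by 0.60 (standard error 0.14, adjusted p = 0.0513). Its probe set 1434520_at rose by 1.98 (adjusted p = 0.00671). Over all 63 probe sets 9 were called (5 higher and 4 lower), beside 2.54% of all probe sets (1.32% higher and 1.22% lower). Nsdhl had signals of 3774, 3141, 3515 and 4066 in recovery and differed from SHS4m by 0.59 (adjusted p = 0.172).

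Genes around the pathway are given by list. Branches to ubiquinone, dolichol and protein prenylation also use mevalonate. Of their 9 measured genes limma called 0 in SHS4m against control, beside 7.47% of all genes. Of the 9, 1 had an unadjusted p under 0.05, beside 4087 of 18193 genes, and the median difference was -0.05. Pdss2, a subunit of the enzyme that makes the ubiquinone side chain, fell in recovery against control (-0.63, adjusted p = 0.0319), and Icmt, which methylates prenylated proteins, rose in recovery against SHS4m (0.49, adjusted p = 0.0269). Of 8 measured genes of sterol sensing, 1 was called in SHS4m against control, beside 7.47% of all genes, 1 in recovery against control, beside 2.52%, and 2 in recovery against SHS4m, beside 3.68%. In SHS4m against control 7 of the 8 had a negative difference, with a median of -0.14. Scap, which escorts SREBP out of the endoplasmic reticulum, fell in SHS4m against control by 0.25 on the log2 scale (adjusted p = 0.026) and rose in recovery against SHS4m by 0.27 (adjusted p = 0.0331). Srebf2, which encodes SREBP-2, differed by -0.14 in SHS4m against control (standard error 0.20, adjusted p = 0.826).

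Insig2, a protein that holds the SREBP complex in the membrane, had signals of 3269, 3245, 5582 and 3648 in recovery, 9482, 8007, 8813 and 10374 in SHS4m and 13022, 9925, 10790 and 13781 in controls. Every recovery array was below every array of the other groups. It fell by 1.62 on the log2 scale in recovery against control (standard error 0.18, adjusted p = 0.00565 from limma), and differed by -0.37 in SHS4m against control (adjusted p = 0.346).

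Of 12 sterol carriers and receptors, 3 were called in SHS4m against control, beside the same 7.47% of all genes: Vldlr, a lipoprotein receptor, rose by 0.78 (adjusted p = 0.0179), Osbpl2, an oxysterol-binding protein, rose by 0.28 (adjusted p = 0.00639), and Scp2, a sterol carrier of peroxisomes, fell by 0.35 on the log2 scale (adjusted p = 0.0296). In recovery against control Osbpl2 alone of the 12 was called (0.20, adjusted p = 0.049). Of 8 genes that turn cholesterol into bile acids, 2 fell in SHS4m against control, beside 3.74% of all genes: Hsd3b7 (-0.38, adjusted p = 0.0112) and Amacr (-0.28, adjusted p = 0.0194). Hsd3b7 also fell in recovery against control (-0.48, adjusted p = 0.0104). Cyp7a1, the first enzyme of that route, differed by 0.26 with a standard error of 0.68 in SHS4m against control.

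Other features of the arrays differed beside these genes. Over all genes, 7.47% were called in SHS4m against control, 2.52% in recovery against control and 3.68% in recovery against SHS4m. Clock genes set the daily rhythm that synthesis genes follow in liver. By limma 4 of 14 were called in each comparison with controls (Clock lower, and Per2, Tef and Ciart higher). In recovery against SHS4m 0 were called. At an unadjusted p under 0.05 there were 6 in SHS4m against control, 9 in recovery against control and 2 in recovery against SHS4m. All genes gave 4087, 2927 and 3310 of 18193 in that order. The study's threshold was passed by 4 higher and 2 lower in SHS4m against control, beside 1.18% and 1.63% of all genes. In recovery it was passed by 6 higher and 2 lower against control, beside 0.495% and 0.72%. Against SHS4m it was passed by 2 higher, beside 0.984%. The 14 clock genes summed to 29400 to 34300 in recovery, 21100 to 24500 in SHS4m and 12400 to 24000 in controls. The 5 measured of 6 hepatocyte markers, with 0 called by limma in any comparison (2 at an unadjusted p under 0.05 in SHS4m against control and 0 in the others), summed to 199000 to 310000 in recovery, 221000 to 251000 in SHS4m and 248000 to 285000 in controls. The 6 Kupffer cell markers, with 2 called in SHS4m against control (Marco higher and Clec4f lower), 1 in recovery against SHS4m (Clec4f higher) and 0 in recovery against control by limma, where 1 had an unadjusted p under 0.05, summed to 7640 to 10500 in recovery, 7000 to 8950 in SHS4m and 8860 to 10700 in controls, and none was at the floor on all arrays of a group. Of 4 intestinal markers Apoa4 rose and Fabp2 fell in SHS4m against control and Fabp2 rose in recovery against SHS4m, with sums of 13800 to 18900 in recovery, 12100 to 17600 in SHS4m and 12400 to 16000 in controls, and 1 at the floor on all recovery and on all SHS4m arrays. Of 3 measured of 5 pancreas markers Cela1 fell in SHS4m and in recovery against control, with sums of 3370 to 4000 in recovery, 2850 to 3640 in SHS4m and 5080 to 6580 in controls, 1 to 2 of the 3 being at the floor on all arrays of a group. Of the markers of endothelial, stellate and bile duct cells, B and T cells, neutrophils and adipocytes, 0 were called by limma in any comparison. At an unadjusted p under 0.05 each list had 0 to 3 genes, beside the counts over all genes given above. The summed B cell markers (3 measured of 4) were 251 to 384 in recovery, 169 to 217 in SHS4m and 224 to 442 in controls. SHS4m thus lay below both other groups. The 3 T cell markers summed to 115 to 232 in recovery, 61.9 to 101 in SHS4m and 98.3 to 194 in controls. These are sums of signals not raised to the floor. Cd3d and Cd3g were each at the floor on 3 of 4 SHS4m arrays, and Cd3e on 2. In controls each of these T cell markers was at the floor on 2 of 4 arrays. In recovery Cd3e was at it on 1, Cd3d on 2 and Cd3g on 0. With so many signals at the floor, a difference in T cells cannot be read from these sums. Endothelial markers summed to 4830 to 6500 in recovery, 4080 to 4870 in SHS4m and 4200 to 6290 in controls. Stellate markers summed to 7480 to 9860 in recovery, 9020 to 12300 in SHS4m and 6880 to 11100 in controls, and bile duct markers to 289 to 437 in recovery, 415 to 474 in SHS4m and 385 to 431 in controls. Neutrophil markers summed to 456 to 627 in recovery, 525 to 1340 in SHS4m and 542 to 907 in controls. The 1 adipocyte marker measured, Adipoq, had 19.4 to 49.9 in recovery, 6.97 to 38.4 in SHS4m and 15.3 to 40.0 in controls. Adipoq was at the floor on 1 recovery, 3 SHS4m and 2 control arrays. The median signal of an array was 65.15 to 78.15. The ratio of 3′ to 5′ actin probe sets, which rises as RNA degrades, was 3.24 to 4.64 on 11 arrays and 8.82 on that of recovery replicate 72, and without that array 0 genes were called in recovery against control and the same 3 in recovery against SHS4m. The part of the clock genes and of cell makeup, B and T cells included, in the differences was not tested.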

How the data were processed

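The authors hybridised liver RNA to Affymetrix GeneChip Mouse Genome arrays and summarised probe sets in Affymetrix Expression Console. The deposited values are linear intensities. Every array had the same mean, 500, once 2% of its values were trimmed from each end. How probes were summarised was not given in the sources used here. Groups were taken from the sample labels. Intensities below 32 (29.9% to 33.5% of an array) were raised to 32 and log2 was taken, so changes of dim probe sets are understated. The 64 array controls were left out, and 45037 probe sets were fitted in 1 model of 3 groups with limma 3.58.1 in R 4.3.3 (lmFit and eBayes, two-sided, Benjamini-Hochberg over all probe sets). The limma fit of SHS4m against control was tested on simulated data. A gene was read by its brightest probe set naming it alone: 34945 probe sets named 1 gene, 932 several and 9160 none in the probe table. The study's threshold pairs a 2-fold change with a p under 0.05. It was taken as unadjusted, since the study's own list holds transcripts with an adjusted p above 0.05. Genes are given with values on every array where a comparison called them, and otherwise by value or count. The genes and lists were chosen with earlier results of these data known. Alternatives were quantile normalization, median centring, a floor of 16 or at the 25th percentile, leaving out dim probe sets (at the floor on more than 8 arrays), the mean of a gene's probe sets, a trended robust variance, a fit of the 2 groups compared and leaving out each array. Array number limits the precision.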

Additional observations from a re-analysis of the deposited data

Results flagged for a closer look

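In 7 of 84 sets of 4 arrays (28 genes in 3 groups), 1 array stood apart from the other 3 by more than Dixon's 95% critical value, where chance gives about 1 in 20. Control replicate 3 was high for Fdps (6107, against 2882 to 3108 on the other control arrays), Lss (2163, against 1259 to 1270) and Sc5d (15920, against 10960 to 11300). SHS4m replicate 69 was high for Lss (1218, against 824.7 to 839.7 on the other SHS4m arrays) and Hsd17b7 (3407, against 2578 to 2694). In the recovery group, replicate 73 was high for Pmvk (2621, against 1430 to 1579) and replicate 70 was low for Stard4 (2519, against 3826 to 3932).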

How the results depend on the processing

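No paired analysis was possible because the groups share no replicate number. No call of a gene changed sign under any alternative run. In SHS4m against control 7 genes were called, 6 to 9 under the settings that kept all arrays of both groups and 5 to 11 with 1 array left out. Idi1, Sc5d, Abcg5, Abcg8 and Scarb1 were called under all 16 alternatives, and Nsdhl and Stard4 were each lost in 5. The study's threshold gave 7 genes, and 5 to 8 over the alternatives. In recovery against control the single call, Abcg5, gave way to 0 calls with dim probe sets left out, either other floor, median centring, quantile normalization, the trended robust variance or only the 2 groups, to 2 (Npc1 and Abcg5) with the mean of a gene's probe sets, and to 0 to 3 with 1 array left out. The study's threshold gave 0 throughout. In recovery against SHS4m 3 genes were called, 2 to 4 under the settings that kept all arrays and 0 to 3 with 1 array left out. Without recovery replicate 71 there were 0 calls by limma, and without SHS4m replicate 66 or 67, or recovery replicate 70 or 73, there was 1, Stard4, with Abcg5 and Scarb1 lost. The study's threshold gave 4 there, 3 to 5 under the other settings and 1 to 4 with 1 array left out (1 without SHS4m replicate 66, and 2 without SHS4m replicate 67 or recovery replicate 73). The cause of these changes was not tested. Median centring moved the synthesis median in SHS4m against control to -0.69, and it was -0.77 as deposited.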
